A study of Mus musculus with 4 samples.

Results

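The 7 genes described here, Foxo3, Bnip3, Sqstm1, Ctsb, Ctsd, Ctsl and Nedd4, act in the wasting of skeletal muscle outside the proteasome. They were taken as every probe set whose platform annotation named one of these genes as its only symbol, which gave 11 probe sets for 7 genes among the 8251 genes with a probe set of their own. Gastrocnemius, a muscle of the mouse calf, was profiled for messenger RNA on 4 Affymetrix MG-U74Av2 arrays, 1 array for each of 4 groups, each array carrying RNA pooled from 10 mice. The groups were adrenalectomized mice without hormone, operated on 1 week earlier; adrenalectomized mice taken 3 h after cortisol, 0.1 mg given intraperitoneally; adrenalectomized mice taken 24 h after that dose; and intact mice. Adrenalectomy takes away the main source of glucocorticoid hormone, and cortisol gives such a hormone back. The interval since surgery was given for the uninjected group alone. The labels used here gave no strain, age, sex or time of day and named no group injected with vehicle, so the effect of the hormone and that of the injection cannot be told apart.

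Foxo3 is a forkhead transcription factor that the insulin pathway keeps out of the nucleus through Akt, and that switches on ubiquitin ligases and autophagy genes when it is active in muscle. In autophagy, membranes enclose cytoplasm or organelles and fuse with lysosomes. Bnip3 is a receptor on mitochondria and Sqstm1 (p62) is a receptor for ubiquitin-tagged cargo, and both bind the membrane proteins of the LC3 and GABARAP family. Ctsb, Ctsd and Ctsl encode the cathepsins, proteases that degrade the delivered proteins inside lysosomes. Nedd4 encodes a ubiquitin ligase that marks membrane proteins for transport to the lysosome.

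Signals are linear intensities scaled to a trimmed mean of 500 on each array, with values under a floor of 100 set to the floor for ratios. Between 63.0% and 64.4% of probe sets were at or above the floor on each array, and the highest signal on each lay between 34253 and 36007. All 7 genes were at or above the floor on all 4 arrays. Of 14 listed genes of skeletal muscle 13 were on the array, and all 13 were at or above the floor on every array. With 1 array per group no test was possible, and a gene was counted as higher or lower when its ratio was at least 1.5-fold. Beside each ratio stands an error SD, taken from genes with 2 or more probe sets as the spread between the log2 ratios of 2 sets of the same gene on the same arrays. It was 0.24 for adrenalectomized over intact, 0.28 for 3 h over adrenalectomized and 0.32 for 24 h over adrenalectomized on the log2 scale, over 926 to 928 genes. Differences between animals, pools and dissections are outside it.

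Foxo3, represented by 1 probe set, was the only member whose brightest probe set spanned more than 1.5-fold over the 4 arrays. Its signal was 524 in adrenalectomized muscle, 874 at 3 h and 551 at 24 h, against 541 in intact muscle. The 3 h array was high and the other 3 arrays lay within 1.05-fold of each other. The 3 h signal was 1.67-fold that of adrenalectomized muscle (log2 ratio 0.74, error SD 0.28 across genes) and 1.62-fold that of intact muscle (log2 ratio 0.69, error SD 0.27). The first of these ratios was 2.63 times its error SD, and 208 of 6168 genes compared (3.37%) had a ratio at least as high. At 24 h the signal was 1.59-fold lower than at 3 h (log2 ratio -0.67, error SD 0.31), 2.17 times its error SD, and 290 of 6229 genes were at or below that ratio. Adrenalectomized over intact gave -0.05, 24 h over adrenalectomized 0.07 and 24 h over intact 0.03 on the log2 scale, all under the error SD. In RNA from whole muscle, a change in the share of a cell type and a change in RNA per cell cannot be told apart. The comparisons with adrenalectomized muscle share that array, as do those with the 3 h array.

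The size of the Foxo3 ratio depended on the scaling of the arrays. When each array was scaled to its ribosomal protein probe sets instead, 3 h over adrenalectomized was 0.53 on the log2 scale, under 1.5-fold. That scaling moved the median of all genes to -0.22 in the same comparison, and relative to the median Foxo3 stood at 0.75, against 0.76 with the main scaling. Over 9 alternatives the ratio lay between 0.53 and 0.76 and the sign turned in 0 of them. Foxo3 has 1 probe set, without a suffix and above every floor tried, so only the rescalings among these could move its ratio. Genes with a mean signal between 300 and 1000, a band chosen after the values were seen and holding Foxo3, had an error SD of 0.31 in this comparison.

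**Figure D1:**
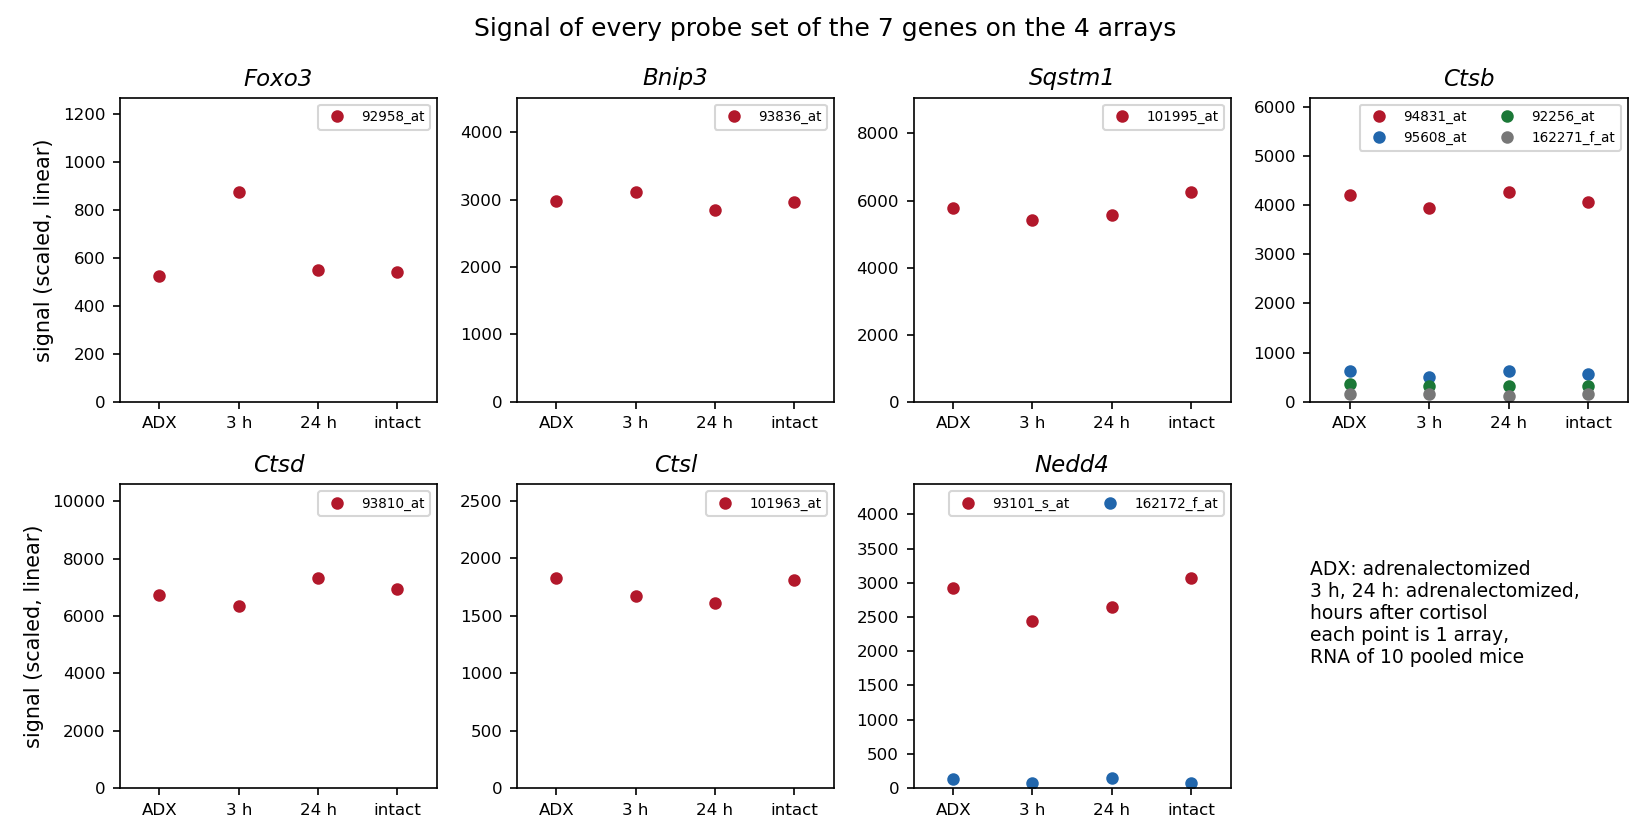
Scaled signals of the 11 probe sets of the 7 genes on the 4 arrays, 1 point per array and probe set, on linear axes that start at 0 and differ between genes. Foxo3 stands at 874 on the 3 h array and between 524 and 551 on the other 3, while the brightest probe set of each other gene spans at most 1.25-fold.

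The 3 h array also differed from the others in markers of other cells. The summed signal of 16 epidermis and hair follicle genes was 1642 in adrenalectomized muscle, 11840 at 3 h and 3380 at 24 h, against 1414 in intact muscle. At 3 h, 10 of the 11 compared were at least 1.5-fold higher than in adrenalectomized muscle, as were 5.07% of all genes. Krt5, Krt14, Krt15, Dsc1 and Ivl were below the floor on all 4 arrays. The 8 slow fibre genes summed to 66958 in adrenalectomized muscle, 19342 at 3 h and 17832 at 24 h, against 58850 in intact muscle. All 8 were at least 1.5-fold lower than in adrenalectomized muscle at 3 h and at 24 h. Of all genes 9.82% passed 1.5-fold in either direction at 3 h and 10.0% at 24 h. The epidermal sum, like Foxo3, was highest at 3 h, whereas the slow fibre sum was low at both times. Macrophages are rich in cathepsins, and 17 of their genes summed to 8562 in adrenalectomized muscle, 6902 at 3 h and 8343 at 24 h, against 7557 in intact muscle. Aif1, Itgam and Fcer1g of that list were below the floor on every array. At 3 h over adrenalectomized most of the genes compared had log2 ratios below 0, among them Csf1r (-0.54), Mrc1 (-0.57) and C1qc (-0.45). Those above 0 were Fcgr3 (0.66), Ptprc (0.15) and Mpeg1 (0.02). Of 14 compared at 3 h over adrenalectomized, Fcgr3 was at least 1.5-fold higher and Tyrobp lower, with a median log2 ratio of -0.28. At 24 h Fcgr3 was higher and Mrc1 lower, with a median of -0.07. With 14 genes, such counts are near the shares of all genes given above. Fcgr3 was under the floor in adrenalectomized muscle. The part of these cells in the Foxo3 and cathepsin signals was not tested.

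**Figure D2:**
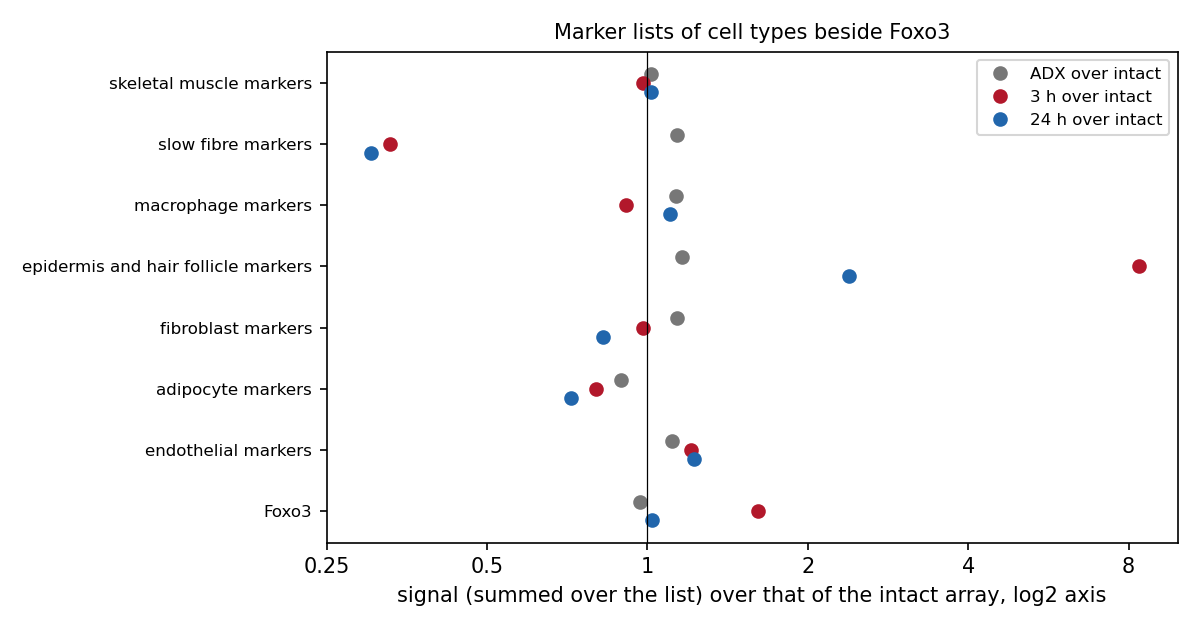
Summed signal of each cell type marker list, and the Foxo3 signal, over the same value in intact muscle, on a log axis. Epidermis and hair follicle genes stand at 8.37 on the 3 h array and slow fibre genes at 0.329, and Foxo3 stands at 1.62 there.

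The genes whose 4 signals ran most like those of Foxo3 were found by the distance between log2 signals centred on their mean, over 4 arrays and 5452 genes at or above the floor on all of them. The nearest was Tinagl1, which encodes a secreted matrix protein, at a distance of 0.06 log2 units, with signals of 314 in adrenalectomized muscle, 515 at 3 h and 345 at 24 h, against 327 in intact muscle. Next came Rps19, a protein of the small ribosomal subunit and one of the genes behind the ribosomal scaling, and then Adh1, an alcohol dehydrogenase, Acy1, an aminoacylase, and Pnp, a purine nucleoside phosphorylase, at distances of 0.08 to 0.09. Their ratios of 3 h over adrenalectomized were 1.64-fold for Tinagl1, 1.68-fold for Rps19, 1.56-fold for Adh1, 1.65-fold for Acy1 and 1.66-fold for Pnp. A likeness over 4 arrays is a description.

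The stretch before the annotated start of Foxo3 was read for the sites of factors tied to these genes, since Foxo3 is the member whose signal was higher after cortisol. RefSeq promoters of the GRCm38.p6 assembly were found for 6 of the 7 members, 7 promoters in all, and Ctsb was not among them. In the 250 bases before the start both strands were searched for 3 motifs, none of which contains another: AGAACA, the hexamer bound by the glucocorticoid receptor, GTAAACA, the FoxO site, and CACGTG, the E-box core bound by Tfeb in lysosomal genes. Among 32851 promoters of the same length, 16.1% held the hexamer, 3.17% the FoxO site and 6.02% the E-box core. The Foxo3 stretch held none of these letters, and its GC content was 76.4%, against a median of 52.4% over all promoters. It lies at chr10:42276696-42276945 on the minus strand and is given 5′ to 3′, in lower case because nothing matched.
Foxo3: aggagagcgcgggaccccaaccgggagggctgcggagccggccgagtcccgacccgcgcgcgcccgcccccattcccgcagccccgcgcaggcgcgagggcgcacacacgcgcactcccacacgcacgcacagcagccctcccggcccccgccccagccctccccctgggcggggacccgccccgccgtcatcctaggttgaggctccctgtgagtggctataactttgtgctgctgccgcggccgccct

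The receptors of autophagy kept close to one level. Bnip3 read 2982 in adrenalectomized muscle, 3109 at 3 h and 2849 at 24 h, against 2962 in intact muscle. The 3 h array was the highest and the 24 h array the lowest, 1.09-fold apart. Its log2 ratios were 0.06 for 3 h over adrenalectomized, -0.07 for 24 h over adrenalectomized and 0.01 for adrenalectomized over intact. The first turned to -0.15 under the ribosomal scaling, and relative to the median of all genes it was 0.07 there. Sqstm1 read 5785 in adrenalectomized muscle, 5413 at 3 h and 5566 at 24 h, against 6247 in intact muscle. Intact muscle was the highest, and the lowest, at 3 h, was 1.15-fold below it. The Sqstm1 log2 ratio was -0.10 for 3 h over adrenalectomized, -0.06 for 24 h over adrenalectomized and -0.11 for adrenalectomized over intact. All of these were smaller than the error SD, so no order of the arrays holds for Bnip3 or Sqstm1.

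The cathepsin genes were as flat. Ctsd, an aspartic protease, read 6729 in adrenalectomized muscle, 6335 at 3 h and 7310 at 24 h, against 6954 in intact muscle. The 24 h array was the highest and the 3 h array the lowest, and 24 h over 3 h was 0.21 on the log2 scale with an error SD of 0.31. Ctsl, a cysteine protease, read 1824 in adrenalectomized muscle, 1676 at 3 h and 1614 at 24 h, against 1815 in intact muscle. Both arrays after cortisol were below both arrays without it, by log2 ratios of -0.12 at 3 h and -0.18 at 24 h over adrenalectomized, which are under the error SD. Under the ribosomal scaling the 24 h ratio of Ctsl was -0.51, and relative to the median of all genes it was -0.19.

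Ctsb, another cysteine protease, had 4 probe sets, which allowed the same gene to be read more than once. The brightest read 4205 in adrenalectomized muscle, 3949 at 3 h and 4264 at 24 h, against 4068 in intact muscle. The second brightest read 634 in adrenalectomized muscle, 509 at 3 h and 634 at 24 h, against 562 in intact muscle. On both the 3 h array was the lowest. The third read 354 in adrenalectomized muscle, 321 at 3 h and 327 at 24 h, against 310 in intact muscle, which was its lowest array. The fourth read 158 in adrenalectomized muscle, 154 at 3 h and 113 at 24 h, against 156 in intact muscle. Its suffix marks probes that may match other transcripts. Over the 4 sets the log2 ratio of 3 h over adrenalectomized was -0.09, -0.32, -0.14 and -0.04 in the order given, below 0 in every set, and the second alone exceeded the error SD of 0.28. The ratio of 24 h over adrenalectomized was 0.02, -0.00, -0.11 and -0.49, and the last set alone exceeded the error SD of 0.32.

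Of the 6 members with a promoter, 3 held the E-box core: Ctsd with 2 matches, and Bnip3 and Ctsl with 1 each. Of 27025 genes with such a promoter, 6.86% held the E-box core and 3.54% the FoxO site. The difference from these shares was not tested. The FoxO site was in none. The Ctsd stretch is shown as the one with the most matches, at chr7:142387828-142388077 on the minus strand, 5′ to 3′, with both E-box cores in capitals, at 240 to 245 and 93 to 98 bases before the start. A match is a description of the letters and not a site of binding.
Ctsd: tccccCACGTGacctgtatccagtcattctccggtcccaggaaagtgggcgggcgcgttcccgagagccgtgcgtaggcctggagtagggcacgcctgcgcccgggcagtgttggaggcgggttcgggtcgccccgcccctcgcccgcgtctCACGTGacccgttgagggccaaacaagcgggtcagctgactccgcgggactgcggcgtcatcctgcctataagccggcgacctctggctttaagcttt

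Nedd4 had 2 probe sets, and both carry suffixes that mark probes shared with other transcripts. The brighter read 2920 in adrenalectomized muscle, 2444 at 3 h and 2645 at 24 h, against 3063 in intact muscle. Both arrays after cortisol were below both arrays without it, and the highest and lowest were 1.25-fold apart. The log2 ratio was -0.26 for 3 h over adrenalectomized and -0.14 for 24 h over adrenalectomized, both under the error SD over all genes, and -0.07 for adrenalectomized over intact. The first exceeded the error SD of 0.21 among genes with a mean signal of at least 1000, which holds this set. For 3 h over intact it was -0.33 (1.25-fold lower), against an error SD of 0.27. The other set read 126 in adrenalectomized muscle, 73.4 at 3 h and 142 at 24 h, against 71.2 in intact muscle, so it was under the floor on the 3 h and intact arrays and did not follow the brighter set. With the mean over both sets, 24 h over intact was 0.15, against -0.21 for the brighter set alone. The second of the 2 Nedd4 promoters held the only receptor hexamer among the 7 promoters, in capitals (read here as TGTTCT, its reverse complement), at 211 to 216 bases before the start. Over all promoters 16.1% held the hexamer, as did 18.2% of genes, so a single match among 7 promoters is near the background. This second promoter lies at chr9:72693048-72693297 on the plus strand.
Nedd4, second promoter: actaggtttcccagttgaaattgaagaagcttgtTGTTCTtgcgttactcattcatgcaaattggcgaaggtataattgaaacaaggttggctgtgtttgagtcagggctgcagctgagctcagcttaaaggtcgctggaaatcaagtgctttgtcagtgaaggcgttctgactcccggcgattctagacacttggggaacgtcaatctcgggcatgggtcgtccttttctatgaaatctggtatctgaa

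By comparison, 1 of the 7 genes, Foxo3, was at least 1.5-fold higher at 3 h than in adrenalectomized muscle and 0 were lower, where 9.82% of the 6168 genes compared passed 1.5-fold in either direction and 5.07% were higher. In 24 h over adrenalectomized 0 of 7 passed, where 10.0% of all genes did, and in adrenalectomized over intact 0 of 7 passed, where 4.91% did. In 24 h over 3 h 1 of 7, Foxo3, was lower (11.6% of all genes passed and 5.88% were lower), in 3 h over intact 1 of 7, again Foxo3, was higher (9.95% passed and 5.70% were higher), and in 24 h over intact 0 of 7 passed (9.99%). None of the 7 passed 2-fold in any of the 6 comparisons, where the share of all genes past 2-fold was 0.720% for adrenalectomized over intact, 3.03% for 3 h over adrenalectomized, 2.33% for 24 h over adrenalectomized, 3.28% for 24 h over 3 h, 2.87% for 3 h over intact and 2.12% for 24 h over intact. With 7 genes, a count of 0 or 1 is near these backgrounds. In 3 h over adrenalectomized the other 6 genes lay between -0.26 and 0.06 on the log2 scale, all within the error SD of 0.28, as were 69.3% of all genes. Within the lower error SD of 0.21 for genes with a mean signal of at least 1000 lay 5 of the 6, and Nedd4 did not. In 24 h over adrenalectomized they lay between -0.18 and 0.12 and in adrenalectomized over intact between -0.11 and 0.05, again all within the error SD. The brightest set of each of the 6 had a mean signal of at least 1000, and of 1535 genes that bright 1393 (90.7%) spanned less than 1.5-fold over the 4 arrays, with a median span of 1.18-fold.

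**Figure D3:**
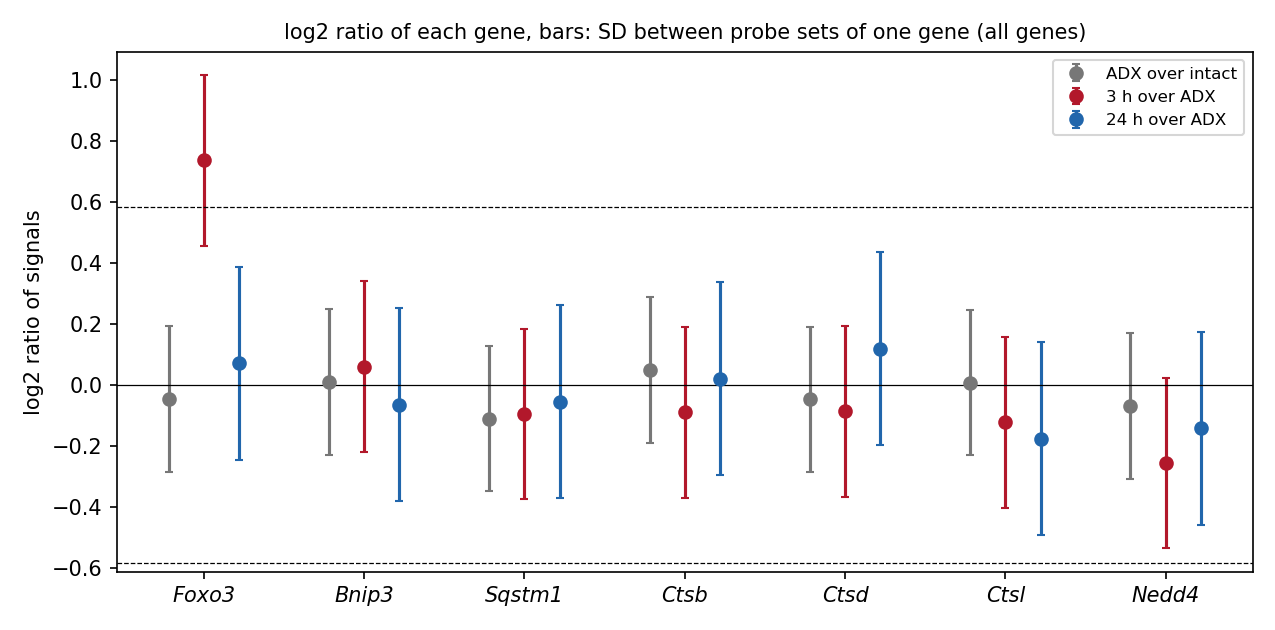
Log2 ratios of the 7 genes, each by its brightest probe set, for adrenalectomized (ADX) over intact, 3 h over adrenalectomized and 24 h over adrenalectomized, with bars of 1 error SD and dashed lines at 1.5-fold. Foxo3 is at 0.74 in 3 h over adrenalectomized, and the other 6 genes lie between -0.26 and 0.12 in the 3 comparisons.

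The wider pathway was read from 6 lists of genes, each described by counts past 1.5-fold and by a median. Both were taken over the genes that reached the floor on 1 or both arrays of a comparison. The lists were chosen with earlier results of these data known, so a count beside the share of all genes is a description. In 3 h over adrenalectomized 9.82% of all genes passed 1.5-fold and 5.07% were higher. In 24 h over adrenalectomized 10.0% passed, and in adrenalectomized over intact 4.91%. The list of the FoxO family with its kinases and deacetylases had 12 of 20 genes on the array. At 3 h 1 of 11 compared was higher than in adrenalectomized muscle and 0 were lower, with a median log2 ratio of -0.12 beside -0.02 for all genes. The 1 was Sgk1, a kinase that phosphorylates FoxO factors, at 4396 in adrenalectomized muscle, 6803 at 3 h and 4064 at 24 h, against 4508 in intact muscle. Sgk1 was high at 3 h alone, 1.55-fold over adrenalectomized, and 0.42 on the log2 scale with the ribosomal scaling, where it was 0.64 relative to the median of all genes. At 24 h 1 of 11 was lower, with a median of -0.18 beside 0.01 for all genes. This was Pik3r1, a regulatory subunit of the kinase above Akt, at 277 in adrenalectomized muscle, 190 at 3 h and 149 at 24 h, against 257 in intact muscle, 1.86-fold lower at 24 h than in adrenalectomized muscle. Both arrays after cortisol were low for Pik3r1, and with a floor of 200 its log2 ratio was -0.47, under 1.5-fold. Foxo4, the only other FoxO factor on the list with a probe set, read 1107 in adrenalectomized muscle, 901 at 3 h and 1089 at 24 h, against 945 in intact muscle, with a log2 ratio of -0.30 at 3 h over adrenalectomized. It was chosen for mention after its values were seen.

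Of 22 listed FoxO target genes of muscle wasting 17 were on the array and 16 were compared. At 3 h 3 were higher than in adrenalectomized muscle (5.07% of all genes were) and 0 lower, with a median of 0.08. The ribosomal scaling turned the sign of this median, to -0.13 where the median of all genes was -0.22, so that relative to all genes it was 0.09. Ddit4, an inhibitor of mTORC1, read 339 in adrenalectomized muscle, 4250 at 3 h and 223 at 24 h, against 338 in intact muscle. Sesn1, a sestrin that also restrains mTORC1, read 828 in adrenalectomized muscle, 2043 at 3 h and 652 at 24 h, against 716 in intact muscle. Both were high at 3 h and lowest at 24 h, with Sesn1 2.47-fold higher at 3 h than in adrenalectomized muscle. Gadd45b, a stress-response gene, read 248 in adrenalectomized muscle, 589 at 3 h and 355 at 24 h, against 297 in intact muscle, and its other probe set had a log2 ratio of 0.90 at 3 h over adrenalectomized. At 24 h 2 were lower than in adrenalectomized muscle and 0 higher (10.0% of all genes passed in either direction), with a median of -0.09. They were Ddit4, by 1.52-fold, and Pdk4, a kinase that holds back glucose oxidation, by 3.07-fold. Pdk4 read 7443 in adrenalectomized muscle, 9322 at 3 h and 2425 at 24 h, against 6455 in intact muscle, so that its 24 h array alone was low. Ddit4 and Pdk4 are also known as targets of the glucocorticoid receptor. Fbxo32 and Trim63, the ubiquitin ligases best known as Foxo3 targets in muscle, were not analysed here.

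The autophagy list had 28 of 42 genes on the array and 27 compared. At 3 h 1 was higher and 1 lower than in adrenalectomized muscle (9.82% of all genes passed in either direction), with a median of -0.04. Bcl2l1, which encodes Bcl-xL, a binding partner of beclin, read 571 in adrenalectomized muscle, 1502 at 3 h and 661 at 24 h, against 544 in intact muscle. It was 2.63-fold higher at 3 h than in adrenalectomized muscle, and its other probe set was under the floor on every array. Atg14, a subunit of the beclin complex, read 175 in adrenalectomized muscle, 116 at 3 h and 141 at 24 h, against 201 in intact muscle, 1.52-fold lower at 3 h than in adrenalectomized muscle. These signals are near the floor, and dividing each array by its median, a floor of 200 or a mean over probe sets each brought the ratio of Atg14 under 1.5-fold. Its other probe set was under the floor in adrenalectomized muscle and at 104 at 3 h. At 24 h 1 was higher and 1 lower (10.0% of all genes passed in either direction), with a median of 0.04. With the ribosomal scaling this median was -0.30 beside -0.32 for all genes. Atg13, a subunit of the kinase complex that starts autophagy, read 555 in adrenalectomized muscle, 593 at 3 h and 897 at 24 h, against 565 in intact muscle, 1.62-fold higher at 24 h than in adrenalectomized muscle. Its 24 h array alone was high, and the log2 ratio of Atg13 with the ribosomal scaling was 0.35, or 0.67 relative to the median of all genes, which that scaling put at -0.32.

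Bcl2, a survival gene whose protein also binds beclin, was the gene lower at 24 h, with 576 in adrenalectomized muscle, 413 at 3 h and 348 at 24 h, against 534 in intact muscle. It was 1.66-fold lower at 24 h than in adrenalectomized muscle. At 3 h over adrenalectomized this probe set gave -0.48 on the log2 scale and another 0.79. That other set read 173 at 3 h and was under the floor in adrenalectomized muscle, so its ratio is to the floor. The mean over sets gave -0.24 at 24 h, where the other sets were under the floor on both arrays and counted as 0. Nbr1, a cargo receptor related to Sqstm1, was the 1 gene of the list past 1.5-fold in adrenalectomized over intact, 1.51-fold lower, with 843 in adrenalectomized muscle, 973 at 3 h and 1175 at 24 h, against 1274 in intact muscle. In adrenalectomized over intact 4.91% of all genes passed 1.5-fold in either direction. The adrenalectomized array was the lowest, and the log2 ratio of Nbr1 was -0.30, under 1.5-fold, with the mean over probe sets. The other Nbr1 set was under the floor on every array, which fixed the ratio of that set at 0. With the ribosomal scaling the log2 ratio of Nbr1 was -0.48, or -0.60 relative to the median of all genes. The 5 genes of the LC3 and GABARAP family with a probe set, named after their values were seen, had log2 ratios at 3 h over adrenalectomized of 0.05 for Map1lc3a, -0.04 for Map1lc3b, 0.00 for Gabarap, -0.05 for Gabarapl1 and -0.04 for Gabarapl2. At 24 h over adrenalectomized they were 0.08 for Map1lc3a, 0.20 for Map1lc3b, 0.04 for Gabarap, -0.17 for Gabarapl1 and -0.12 for Gabarapl2. All 10 ratios were within the error SD.

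The next list held the other cathepsins, the cystatins, which are their inhibitors, and 2 further lysosomal proteases, Lgmn and Tpp1. Of its 17 genes 15 were on the array and 12 were compared. None was 1.5-fold higher or lower in any of the 6 comparisons, where 4.91% to 11.6% of all genes were. With 12 genes, a count of 0 is near these shares. The medians were -0.06 at 3 h and 0.08 at 24 h over adrenalectomized and 0.03 in adrenalectomized over intact. At 3 h the 12 ratios lay between -0.49 and 0.29, and at 24 h between -0.52 and 0.35. Lgmn was the lowest at both times. The list of lysosomal membrane proteins and hydrolases had 43 of 55 genes on the array. At 3 h 0 of 38 passed 1.5-fold over adrenalectomized (9.82% of all genes passed in either direction), with a median of 0.02. At 24 h 2 of 39 were higher and 0 lower (10.0% of all genes passed in either direction), with a median of 0.01, which turned sign in 5 of 7 alternatives. Cln3, a lysosomal membrane protein, read 237 in adrenalectomized muscle, 289 at 3 h and 395 at 24 h, against 307 in intact muscle. Atp6v0e, a subunit of the proton pump that acidifies the lysosome, read 403 in adrenalectomized muscle, 416 at 3 h and 657 at 24 h, against 399 in intact muscle. Both were highest at 24 h, 1.67-fold for Cln3 and 1.63-fold for Atp6v0e over adrenalectomized. With the ribosomal scaling the log2 ratios relative to the median of all genes were 0.72 for Cln3 and 0.69 for Atp6v0e. With the mean over its probe sets Cln3 was at 0.37, under 1.5-fold. The other Cln3 set was under the floor on every array, which fixed the ratio of that set at 0. In adrenalectomized over intact 1 of 39 was higher (4.91% of all genes passed in either direction), with a median of -0.06. It was Lipa, the lysosomal acid lipase, at 207 in adrenalectomized muscle, 265 at 3 h and 140 at 24 h, against 131 in intact muscle, a ratio of 1.59-fold that a floor of 200 reduced to 0.05 on the log2 scale.

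The list of Nedd4 family ligases, their adaptors and other ubiquitin and calpain genes of atrophy had 18 of 31 genes on the array, all compared. At 3 h 1 was higher than in adrenalectomized muscle (5.07% of all genes were) and 0 lower, with a median of 0.01. It was Capn2, a calcium-dependent protease, at 450 in adrenalectomized muscle, 709 at 3 h and 589 at 24 h, against 588 in intact muscle. The 3 h signal was 1.57-fold that of adrenalectomized muscle, though the adrenalectomized array was itself the lowest of the 4. The log2 ratio of Capn2 was 0.33, under 1.5-fold, with the mean over its probe sets. The other Capn2 set was under the floor on every array, which fixed the ratio of that set at 0. With the ribosomal scaling the log2 ratio of Capn2 was 0.67 relative to the median of all genes. None of the 18 passed 1.5-fold at 24 h over adrenalectomized, where 10.0% of all genes did, and the median was -0.10. In adrenalectomized over intact none passed either, where 4.91% of all genes did, and the median was 0.05.

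**Figure D4:**
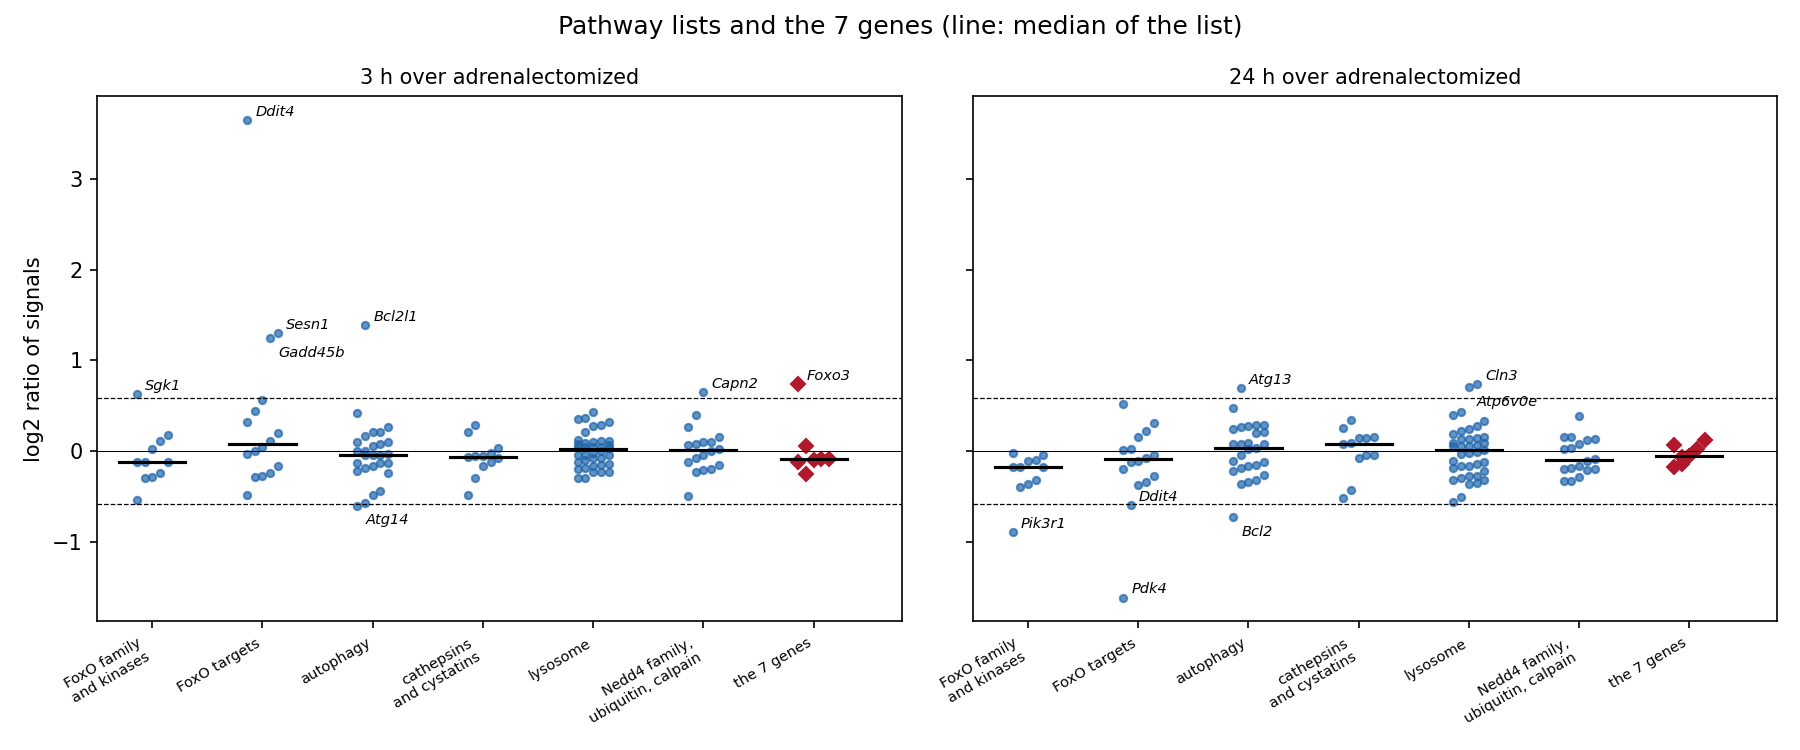
Log2 ratios of the genes of the 6 pathway lists and of the 7 members, at 3 h and at 24 h over adrenalectomized, with a line at each median and dashed lines at 1.5-fold. Most genes lie between the dashed lines, Ddit4 stands at 3.65 at 3 h and Pdk4 at -1.62 at 24 h.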

How the data were processed

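Gastrocnemius RNA was isolated with Trizol and pooled per group before hybridization, and no replicate was made, per the labels. What the authors deposited was a linear intensity per probe set, made from the scans with MAS 5.0, as the labels say. Each array's deposited trimmed mean, leaving out 2% at each end, was 500 to 500.6. Its settings are not given in the sources used here. Precision is limited by the number of arrays. The fluidics module differed for each array, so module and group cannot be told apart.

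The 12422 probe sets that were not controls were scaled on each array to a trimmed mean of 500, floored at 100 and put on the log2 scale. Of 12488 probe sets 10833 had 1 gene symbol, 396 several and 1193 none, and 10817 matched the RefSeq gene table by gene ID. A gene was represented by its brightest probe set. Signals of different probe sets were not compared with each other. The fold rule was 1.5, with 2 as an alternative, and no p-value was computed. The error SD is that of the difference in log2 ratio between the 2 brightest sets of a gene, divided by the square root of 2.

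The text names all members with every probe set and the 5 genes nearest to Foxo3. It also names the pathway genes past 1.5-fold, at most 4 per direction, in adrenalectomized over intact and in 3 h and 24 h over adrenalectomized. The members and lists were chosen with earlier results of these data known. Python 3.11.15, numpy 2.4.6, pandas 2.3.3, scipy 1.17.1 and matplotlib 3.10.9 were used, and the scripts were tested on simulated data. Alternatives were the deposited values, median, quantile and ribosomal protein scaling, floors of 50 and 200 or none, a mean over probe sets, sets without a suffix and the 2-fold rule.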

Additional observations from a re-analysis of the deposited data

How the results depend on the processing

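With scaling to ribosomal protein probe sets the number of members past 1.5-fold in 3 h over adrenalectomized was 0, against 1 in the main setting. With the 2-fold rule it was 0, against 1, in 3 h over adrenalectomized, 24 h over 3 h and 3 h over intact. The other 56 of 60 counts were the same as in the main setting. Many of the alternatives could not move a member. The brightest set of each member was above every floor tried, and 5 members had 1 probe set, where a mean over sets changes nothing. Of 372 recomputed member ratios 364 moved by less than the error SD. The sign turned in 28, spread over 20 of the 42 member and comparison pairs, and in all 20 the main ratio was under the error SD. The 8 that moved further were the 7 members in 24 h over adrenalectomized with ribosomal scaling, between -0.22 and -0.51 where the median of all genes was -0.32, and Nedd4 in 24 h over intact with the mean over probe sets, 0.15. Of 252 list medians 210 stayed close and 42 moved. Nedd4 has no probe set without a suffix, so that alternative gave no value for it. No paired analysis was possible because each group had 1 array. No array could be left out because each group had only that one. Signals near the floor limit what can be read of dim genes such as Atg14, Atg7 and the second Nedd4 set.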

Other observations

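Between the 2 times after cortisol, several FoxO targets differed. At 24 h 5 of 16 were at least 1.5-fold lower than at 3 h and 0 were higher, with a median log2 ratio of -0.18 beside 0.03 for all genes, of which 5.88% were lower and 11.6% passed 1.5-fold in either direction. They were Ddit4 (19.0-fold lower), Pdk4 (3.84-fold), Sesn1 (3.13-fold), Gadd45a (1.77-fold), a stress-response gene, and Gadd45b (1.66-fold). Foxo3 was lower by 1.59-fold in the same comparison, and Sgk1 was lower by 1.67-fold, the 1 gene of 11 in the FoxO family list. Of the autophagy list Atg13 was higher and Bcl2l1 lower, and of the lysosomal list Atp6v0e was higher and Lipa and Npc1 lower, of 39 compared. With a floor of 200 the log2 ratio of Lipa was -0.41, under 1.5-fold. Npc1, which exports cholesterol from lysosomes, read 2280 in adrenalectomized muscle, 3079 at 3 h and 1877 at 24 h, against 2104 in intact muscle. The genes named in this paragraph and the next were taken by the 1.5-fold rule after their values were seen. The lists were themselves chosen with earlier results of these data known, so their counts beside the shares of all genes are descriptions.

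Against intact muscle, the pathway genes past 1.5-fold at 3 h that had not passed over adrenalectomized were Atg7, Lipa and Gnptab, and at 24 h they were Atg7 and Laptm4a. Atg7, an enzyme of LC3 conjugation, was 1.56-fold higher at 3 h and 1.62-fold higher at 24 h, with 178 at 3 h and 185 at 24 h, against 114 in intact muscle. With a floor of 200 both its log2 ratios were 0.00. Lipa was 2.03-fold higher at 3 h than in intact muscle, and with a floor of 200 its log2 ratio was 0.41, under 1.5-fold. Gnptab, a subunit of the enzyme that tags hydrolases for the lysosome, was at least 1.55-fold lower at 3 h, at 94.0, under the floor, against 155 in intact muscle. Laptm4a, a lysosomal membrane protein, was 1.74-fold lower at 24 h than in intact muscle, at 3772 against 6554, and 1.39-fold lower in adrenalectomized than in intact muscle, at 4701. The FoxO targets had a median of 0.11 at 3 h over intact with 3 of 16 higher, where 5.70% of all genes were higher. At 24 h over intact their median was -0.13, with 2 of 16 lower and 0 higher. In that comparison 9.99% of all genes passed 1.5-fold in either direction.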
